A study of Mus musculus with 12 samples.

Results

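The YAP and TEAD genes described here are 10 in number, taken by symbol from the 36292 human gene symbols in the deposited table. They are 4 parts of the transcriptional machinery (YAP1, WWTR1, TEAD1 and TEAD4), 3 widely used YAP and TEAD targets (CYR61, CTGF and ANKRD1) and 3 genes that feed back on the pathway (AMOTL2, LATS2 and AJUBA). CYR61 and CTGF are the older symbols of CCN1 and CCN2. All 10 passed the low-count filter, and the lowest estimated count of any of them in a tumor was 59. Sequences and positions of these human genes were not analysed here.

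YAP1 and WWTR1 (also called TAZ) are transcriptional coactivators that the Hippo kinase cascade keeps out of the nucleus. They do not bind DNA themselves and act mainly through TEAD transcription factors, which recruit them to enhancers of matricellular, cytoskeletal and feedback genes. In liver, YAP is known for its control of organ size, of hepatocyte against biliary identity and of tumor growth.

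The tumors were subcutaneous xenografts of Hep3B, a human hepatocellular carcinoma line, in female BALB/c nu/nu mice inoculated at about 8 weeks of age. Groups of 3 mice were dosed once a day by mouth with both H3B-6527 and lenvatinib (the combination), with H3B-6527, with lenvatinib or with vehicle. The H3B-6527 dose was 300 mg/kg and that of lenvatinib was 10 mg/kg. H3B-6527 is a selective inhibitor of the FGF receptor FGFR4, and lenvatinib inhibits VEGF, FGF and other receptor kinases. Dosing started once tumors averaged roughly 500 mm3, and the tissue was taken 8 hours after dose 4. All groups therefore share the cell line and a host that lacks T cells, and each tumor gave 1 bulk library of estimated counts. In such libraries, fewer cells of a type and less RNA per cell cannot be told apart.

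Library totals ran from 23.8 to 40.9 M (mega) counts, with the smallest in H3B-6527 tumor 3. All 9 hepatocyte markers, read as a check of the cell line, were at 221 CPM or more in all 12 tumors (CPM is counts per M of the library total after TMM scaling). DUSP6, a phosphatase gene induced by FGF and MAPK signaling, averaged 10.5 ± 4.92 CPM with the combination, 5.13 ± 2.46 with H3B-6527, 84.2 ± 19.5 with lenvatinib and 80.6 ± 11.2 with vehicle (SD, n = 3 each). SPRY4 and ETV5 were further treatment checks. SPRY4 averaged 0.392 ± 0.198 CPM with the combination and 0.201 ± 0.189 with H3B-6527. It averaged 2.89 ± 1.49 CPM with lenvatinib and 5.01 ± 0.04 with vehicle. Its log2 fold change was −4.80 with H3B-6527 (edgeR adjusted p = 3.56e-05) and −0.80 with lenvatinib (edgeR adjusted p = 0.525). ETV5 averaged 7.53 ± 3.31 CPM with the combination and 3.46 ± 0.335 with H3B-6527. With lenvatinib it averaged 44.3 ± 11.4 CPM and with vehicle 50.4 ± 1.86. Its log2 fold change was −3.87 with H3B-6527 (edgeR adjusted p = 2.53e-06) and −0.19 with lenvatinib (edgeR adjusted p = 0.854). The mean chi-square per gene between replicate libraries was 53.3 to 168 among H3B-6527 tumors and 8.46 to 45.2 in the other groups.

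CYR61, CTGF, ANKRD1 and AMOTL2 fell with both treatments that contained H3B-6527, and so did YAP1, TEAD1 and TEAD4, while WWTR1, LATS2 and AJUBA did not pass the test. Against vehicle, 7 of the 10 genes fell with H3B-6527 and 7 fell with the combination, and none rose. Among all 15836 genes tested, 24.3% fell and 25.2% rose with H3B-6527, and 25.3% fell and 24.8% rose with the combination. The 10 genes and the gene lists below were chosen with earlier results of these data known. Their counts beside these shares are therefore description only. The same 7 genes were called in both comparisons, which share the vehicle tumors. For these 7 every treated tumor lay below every vehicle tumor, as it did for 27.9% of all genes with H3B-6527 and for 32.8% with the combination. The median log2 fold change of the 10 genes was −0.995 with H3B-6527 and −1.12 with the combination, against 0.01 in each comparison over all genes tested. With any 1 tumor left out, 6 or 7 of the 10 fell with H3B-6527 and 7 with the combination.

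**Figure D1:**
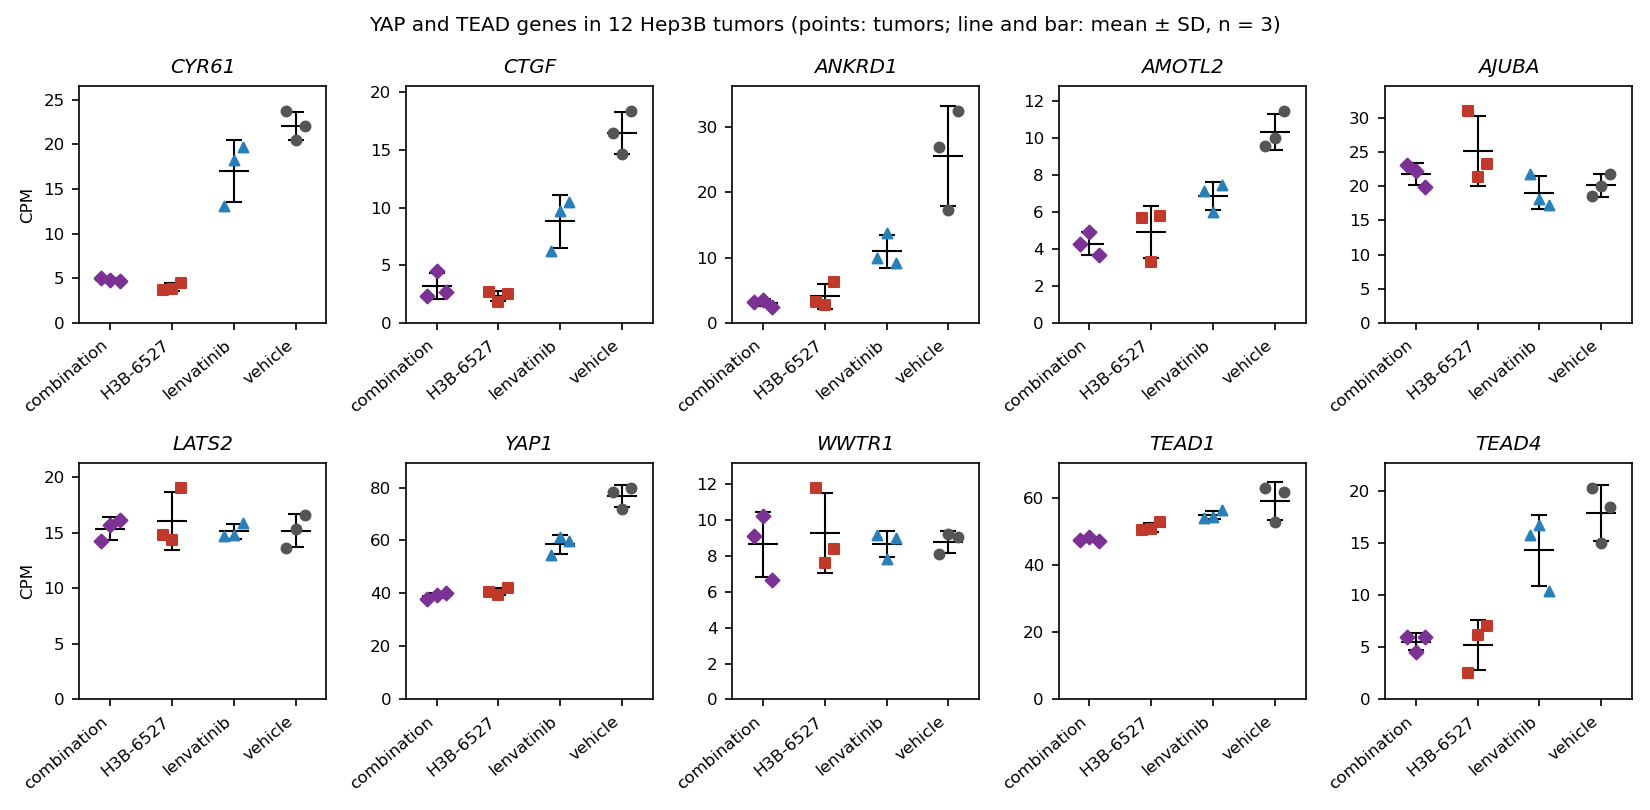
CPM (y axis, linear from 0) of each gene in the 12 tumors, by group (x axis). Points are tumors, and the line and bar are the mean ± SD of 3 tumors. Combination and H3B-6527 tumors lie below every vehicle tumor for 7 genes (CYR61, CTGF, ANKRD1, AMOTL2, YAP1, TEAD1 and TEAD4), and groups overlap for AJUBA, LATS2 and WWTR1.

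Stromal and vascular cells also express CYR61, CTGF and ANKRD1, so markers of other cell types were read under their human symbols. Summed fibroblast markers, 7 of 7 in the table, ran from 58.3 to 59.1 CPM with the combination, 48.8 to 61.3 with H3B-6527, 103 to 120 with lenvatinib and 115 to 124 with vehicle. With H3B-6527 and with the combination, 4 of the 5 fibroblast markers tested fell, where 24.3% and 25.3% of all genes were lower. PDGFRA and PDGFRB carried nearly all of this sum, while DCN and LUM had 11 and 18 counts over all 12 tumors. Of 6 endothelial markers 5 were read, with summed levels from 0.0257 to 0.348 CPM over all tumors and ERG at 0. Pericyte and smooth muscle markers (5 of 5) summed to 5.98 to 7.04 CPM with the combination, 6.28 to 7.56 with H3B-6527, 8.05 to 9.18 with lenvatinib and 9.08 to 9.68 with vehicle, mostly MYH11. Macrophage markers (5 of 5) summed to 146 to 183, 131 to 199.5, 98.6 to 108 and 83.4 to 115 CPM in the same order, mostly CD68. Hepatocyte markers (9 of 9) summed to 168300 to 189700 CPM with the combination, 139800 to 202500 with H3B-6527, 94560 to 115100 with lenvatinib and 88290 to 97040 with vehicle. Among markers tested with H3B-6527, 7 of 9 for hepatocytes and 1 of 4 for macrophages rose, where 25.2% of all genes were higher. With the combination 8 of 9 and 2 of 4 rose, where 24.8% of all genes were higher. For pericytes and smooth muscle, 1 of 3 fell with H3B-6527, where 24.3% of all genes were lower. With the combination 1 of these 3 fell and 1 rose, where 25.3% of all genes were lower and 24.8% higher. Host cells of these tumors are mouse cells, and how mouse reads were handled is not given. Sums under human symbols therefore cannot be read as amounts of host cells. The part of these cell types in the changes of the 10 genes and of the lists was not tested.

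The coactivator YAP1 fell in both groups that received H3B-6527. It had 38.0, 39.5 and 40.1 CPM in the combination tumors and 40.6, 39.4 and 42.1 CPM in the H3B-6527 tumors, against 78.2, 71.9 and 79.9 CPM in the vehicle tumors. The groups were far apart relative to their spread, with lenvatinib tumors in between at 54.6, 61.4 and 59.9 CPM. YAP1 fell by 0.97 ± 0.07 on the log2 scale with the combination (SE, edgeR adjusted p = 1.835e-06) and fell by 0.91 ± 0.07 with H3B-6527 (edgeR adjusted p = 2.00e-06), or 1.96-fold and 1.89-fold.

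WWTR1, the paralog of YAP1, did not pass the test. Its tumors had 9.11, 10.2 and 6.68 CPM with the combination, 11.8, 7.62 and 8.42 CPM with H3B-6527, 9.18, 7.83 and 9.001 CPM with lenvatinib, and 8.10, 9.25 and 9.06 CPM with vehicle. All 4 groups overlapped. The log2 fold change was −0.03 with the combination (95% interval −0.41 to 0.36, edgeR adjusted p = 0.916) and 0.08 with H3B-6527 (−0.30 to 0.46, edgeR adjusted p = 0.739), so a change of the size seen in YAP1 lies outside both intervals.

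The ratio of YAP1 to WWTR1 counts within a tumor does not depend on library scaling. Its log2 value averaged 2.20 ± 0.34 with the combination, 2.16 ± 0.33 with H3B-6527, 2.76 ± 0.20 with lenvatinib and 3.12 ± 0.16 with vehicle (SD, n = 3 each). Every combination and H3B-6527 tumor lay below every vehicle tumor, with differences of −0.93 and −0.97 (exact permutation test, 2-sided, p = 0.1 for each, the smallest that 3 against 3 tumors allow). Lenvatinib overlapped vehicle (difference −0.36, exact permutation p = 0.2). The ratio rests on the same YAP1 and WWTR1 counts as the tests above and is not separate evidence. Changes in the ratio can be read between groups, but without transcript lengths it does not say which paralog is the more abundant.

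TEAD genes encode the DNA-binding partners, and TEAD4 fell in both groups that received H3B-6527. Its 3 tumors had 6.01, 4.59 and 6.02 CPM with the combination and 2.52, 6.15 and 7.08 CPM with H3B-6527, against 20.3, 15.01 and 18.5 CPM with vehicle. H3B-6527 tumor 1 was lowest, and no treated tumor of these groups reached the vehicle range. TEAD4 fell by 1.69 ± 0.31 with the combination (SE, edgeR adjusted p = 7.95e-04) and fell by 1.79 ± 0.31 with H3B-6527 (edgeR adjusted p = 5.82e-04).

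TEAD1 also fell in both. It had 47.8, 48.4 and 47.3 CPM in the combination tumors and 50.5, 50.8 and 52.9 CPM in the H3B-6527 tumors, against 63.2, 52.9 and 61.9 CPM in the vehicle tumors. The lowest vehicle tumor and the highest H3B-6527 tumor both round to 52.9, and the groups did not overlap. The log2 fold change was −0.31 ± 0.08 with the combination (SE, edgeR adjusted p = 0.00450) and −0.21 ± 0.08 with H3B-6527 (edgeR adjusted p = 0.0376). The H3B-6527 call was lost without vehicle tumor 1 (0.156), vehicle tumor 3 (0.129), H3B-6527 tumor 1 (0.0755) or H3B-6527 tumor 2 (0.0811), in a fit of the 2 groups alone (0.115) and without a low-count filter (0.0859), all edgeR adjusted p.

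The log2 ratio of TEAD4 to TEAD1 counts averaged −3.12 ± 0.24 with the combination, −3.42 ± 0.78 with H3B-6527, −1.98 ± 0.41 with lenvatinib and −1.73 ± 0.09 with vehicle (SD, n = 3 each). Both H3B-6527-containing groups lay wholly below vehicle, with differences of −1.39 and −1.69 (2-sided exact permutation p = 0.1 each, the smallest possible). Lenvatinib overlapped vehicle (difference −0.24, exact permutation p = 0.5). This ratio, too, rests on counts already tested above and is not separate evidence.

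**Figure D2:**
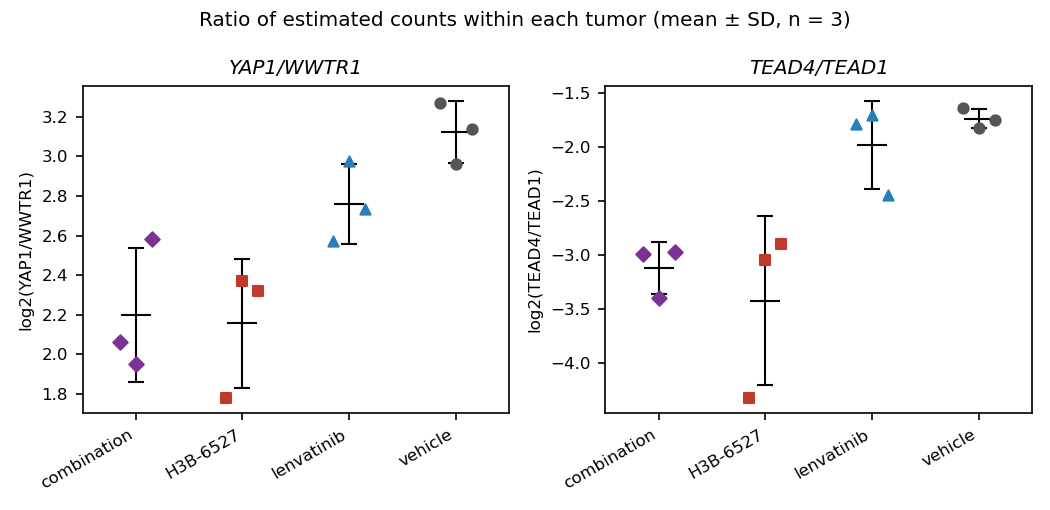
Log2 ratio of estimated counts within each tumor (y axis, not starting at 0) for YAP1 over WWTR1 and TEAD4 over TEAD1, by group (x axis). Points are tumors, lines and bars are the mean ± SD of 3. Means of YAP1/WWTR1 are 2.20, 2.16, 2.76 and 3.12 from left to right, and those of TEAD4/TEAD1 are −3.12, −3.42, −1.98 and −1.73.

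Of the other TEAD family genes and VGLL cofactors, 3 of 4 tested fell with H3B-6527 and 2 fell with the combination, and none rose, against 24.3% and 25.3% of all genes lower. Over the alternatives, 2 to 3 were called lower with H3B-6527 and 2 with the combination. TEAD2 averaged 15.5 ± 2.83 CPM with the combination and 16.1 ± 7.09 CPM with H3B-6527, against 54.8 ± 1.93 CPM with vehicle, with log2 fold changes of −1.82 ± 0.27 and −1.78 ± 0.27 (SE, edgeR adjusted p = 1.94e-04 and 2.37e-04). VGLL4, which competes with YAP for TEAD, had log2 fold changes of −0.82 ± 0.16 and −0.98 ± 0.16 in the same comparisons, both past the test. VGLL3, another TEAD-binding cofactor, fell by 1.07 ± 0.38 with H3B-6527 (edgeR adjusted p = 0.0322) on 29 counts over 3 tumors against 69 with vehicle. TEAD3 had log2 fold changes of 0.07 ± 0.11 with the combination and 0.05 ± 0.11 with H3B-6527, neither past the test. VGLL1 and VGLL2 had 0 counts in all 12 tumors.

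CYR61 encodes a secreted matricellular protein that binds integrins. It had 5.00, 4.80 and 4.72 CPM with the combination and 3.68, 3.77 and 4.52 CPM with H3B-6527, against 23.7, 20.5 and 22.1 CPM with vehicle. The 2 groups that received H3B-6527 lay well below vehicle and did not overlap each other. It fell 4.57-fold with the combination (log2 change −2.19 ± 0.15, SE, edgeR adjusted p = 1.08e-06) and 5.57-fold with H3B-6527 (−2.48 ± 0.15, edgeR adjusted p = 4.13e-07). With H3B-6527 it ranked 213 from the lowest fold change of the 15836 genes tested, CTGF 137 and ANKRD1 162.

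CTGF, the closest relative of CYR61 on the list and a connective tissue growth factor, fell as well. Its tumors had 2.37, 4.52 and 2.69 CPM with the combination and 2.65, 1.84 and 2.47 CPM with H3B-6527, against 16.4, 14.7 and 18.3 CPM with vehicle. Combination tumor 2 was the highest of the 6 low tumors and still under every vehicle tumor. CTGF fell by 2.38 ± 0.25 with the combination (SE, edgeR adjusted p = 1.27e-05) and fell by 2.83 ± 0.26 with H3B-6527 (edgeR adjusted p = 4.51e-06).

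ANKRD1, which encodes a nuclear ankyrin repeat protein, fell in both groups that received H3B-6527. It had 3.16, 3.56 and 2.49 CPM with the combination and 3.16, 2.74 and 6.28 CPM with H3B-6527, against 26.9, 17.3 and 32.4 CPM with vehicle. H3B-6527 tumor 3 lay above the other 5 low tumors. ANKRD1 fell 8.37-fold with the combination (log2 change −3.06 ± 0.33, SE, edgeR adjusted p = 2.02e-05) and 6.45-fold with H3B-6527 (−2.69 ± 0.32, edgeR adjusted p = 4.18e-05).

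AMOTL2, an angiomotin that tethers YAP outside the nucleus and is itself a YAP target, fell 2.42-fold with the combination and 2.11-fold with H3B-6527. It had 4.27, 4.90 and 3.68 CPM with the combination and 5.68, 3.31 and 5.78 CPM with H3B-6527, against 9.58, 9.99 and 11.4 CPM with vehicle. Both groups lay below vehicle. The log2 fold change was −1.27 ± 0.19 with the combination (SE, edgeR adjusted p = 1.69e-04) and −1.08 ± 0.19 with H3B-6527 (edgeR adjusted p = 5.55e-04).

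The other feedback genes did not pass the test. LATS2, the kinase that phosphorylates YAP and is also one of its targets, had 14.2, 15.7 and 16.1 CPM with the combination and 14.8, 14.3 and 19.0 CPM with H3B-6527, against 13.7, 15.3 and 16.6 CPM with vehicle. The groups overlapped, and the log2 fold changes were 0.02 (95% interval −0.24 to 0.27) and 0.08 (−0.18 to 0.33), with edgeR adjusted p = 0.920 and 0.625. AJUBA, a LIM protein that binds and restrains LATS kinases, had 23.2, 22.3 and 19.9 CPM with the combination and 31.0, 21.3 and 23.3 CPM with H3B-6527, against 18.5, 20.1 and 21.8 CPM with vehicle. H3B-6527 tumor 1 was the highest of all. Its log2 fold change was 0.11 with the combination (−0.18 to 0.41, edgeR adjusted p = 0.519). With H3B-6527 it was 0.33 (0.03 to 0.62, edgeR adjusted p = 0.0659), and it passed in 1 of 13 alternatives, without H3B-6527 tumor 2 (0.43, edgeR adjusted p = 0.0250).

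**Figure D3:**
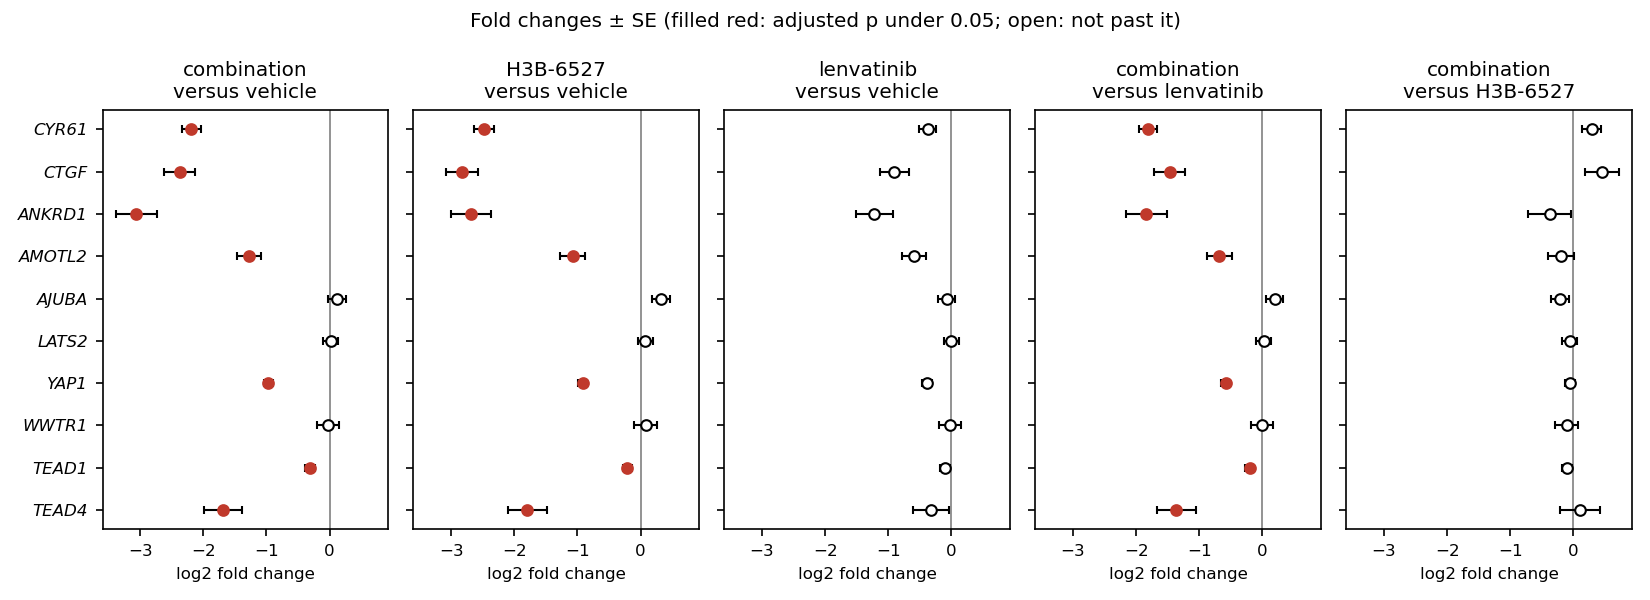
Log2 fold change ± SE (x axis) of the 10 genes (y axis) in 5 comparisons. Filled points have edgeR adjusted p under 0.05. The 3 comparisons that contrast tumors with and without H3B-6527 each hold 7 filled points to the left of 0, and the panels for lenvatinib against vehicle and the combination against H3B-6527 hold none.

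The comparison of lenvatinib with vehicle addresses the multikinase inhibitor alone. No member passed the test, as was so for all 15836 genes in the edgeR fit of the 4 groups (0% called lower and 0% higher). All 10 log2 fold changes were below 0, as were those of 7675 of the 15836 genes tested. The median of the 10 was −0.35, against 0.01 over all genes. LATS2 (−0.0063) and WWTR1 (−0.0214) were close to 0, and their direction turned with some single tumors left out. For 5 of the 10 (CYR61, CTGF, ANKRD1, AMOTL2 and YAP1) every lenvatinib tumor lay below every vehicle tumor, which held for 10.9% of all genes tested. The same 5 had an unadjusted p under 0.05, against 10.7% of all genes in either direction.

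ANKRD1 had 9.92, 13.8 and 9.16 CPM with lenvatinib, against 26.9, 17.3 and 32.4 CPM with vehicle. The log2 fold change was −1.22 ± 0.29 (SE, unadjusted p = 0.00135, edgeR adjusted p = 0.167), which ranked 43 from the lowest of the genes tested. CTGF had 6.22, 9.69 and 10.5 CPM with lenvatinib, against 16.4, 14.7 and 18.3 CPM with vehicle, a log2 fold change of −0.91 ± 0.23 (edgeR adjusted p = 0.167).

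YAP1 had 54.6, 61.4 and 59.9 CPM with lenvatinib, against 78.2, 71.9 and 79.9 CPM with vehicle (log2 fold change −0.39 ± 0.07, unadjusted p = 1.52e-04, edgeR adjusted p = 0.102). AMOTL2 had 7.15, 5.998 and 7.44 CPM with lenvatinib, against 9.58, 9.99 and 11.4 CPM with vehicle (−0.59 ± 0.19, edgeR adjusted p = 0.269). CYR61 had 13.1, 18.3 and 19.7 CPM with lenvatinib, against 23.7, 20.5 and 22.1 CPM with vehicle (−0.38 ± 0.14, edgeR adjusted p = 0.324). For all 5, each lenvatinib tumor lay below the vehicle tumors and above those that received H3B-6527. The share of all genes with this order was not computed, so it is description only.

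The call depended on the tool and the samples fitted. DESeq2 called CTGF (adjusted p = 0.0213), ANKRD1 (0.00709) and YAP1 (3.23e-04) lower with lenvatinib, where it called 0.739% of all genes lower. An edgeR fit of the 2 groups alone called CTGF (adjusted p = 0.0477), AMOTL2 (0.0471) and YAP1 (0.0398) lower, where 0.577% of all genes were. The other 11 alternatives called no member. TEAD4 had 15.8, 16.7 and 10.4 CPM with lenvatinib, against 20.3, 15.01 and 18.5 CPM with vehicle, and overlapped it (log2 fold change −0.33, 95% interval −0.96 to 0.31).

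Between combination and lenvatinib tumors, 7 of the 10 fell and none rose, against 20.9% of all genes lower and 19.1% higher. The 7 were CYR61, CTGF, ANKRD1, AMOTL2, YAP1, TEAD1 and TEAD4, and none overlapped, as held for 29.7% of all genes in the lower direction. Their combination tumors are also those of the comparison with vehicle. The log2 fold change was −1.81 ± 0.15 for CYR61 (SE, edgeR adjusted p = 1.07e-05), −1.84 ± 0.32 for ANKRD1 (0.00111), −1.47 ± 0.25 for CTGF (7.14e-04), −1.36 ± 0.31 for TEAD4 (0.00468) and −0.58 ± 0.07 for YAP1 (1.14e-04). AMOTL2 fell by 0.69 ± 0.20 (0.0144), a call lost without lenvatinib tumor 3 (0.0511) or combination tumor 3 (0.0567). TEAD1 fell by 0.20 ± 0.08 (0.0491), but 9 of 13 alternatives lost that call (edgeR adjusted p up to 0.128).

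Between combination and H3B-6527 tumors no member passed the test, and none had an unadjusted p under 0.05, against 9.42% of all genes. For CYR61 the means were 4.84 ± 0.14 CPM with the combination and 3.99 ± 0.46 CPM with H3B-6527, and every combination tumor was the higher. TEAD1 was lower in every combination tumor than in every H3B-6527 tumor. Over all genes, libraries did not overlap for 5.95% in the higher and 7.15% in the lower direction, and 0% were called lower and 0.0126% higher. The log2 fold change was 0.29 (95% interval −0.05 to 0.63) for CYR61, 0.45 (−0.13 to 1.03) for CTGF, −0.38 (−1.11 to 0.36) for ANKRD1 and −0.05 (−0.21 to 0.11) for YAP1.

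The non-additivity contrast, combination minus H3B-6527 minus lenvatinib plus vehicle on the log2 scale, asks whether the single-agent effects add up. It was 1.36 ± 0.35 for CTGF, 0.66 ± 0.21 for CYR61 and 0.33 ± 0.10 for YAP1 (SE, unadjusted p = 0.00209, 0.00707 and 0.00703). None passed after adjustment (edgeR adjusted p = 0.757, 0.768 and 0.768), nor did any of the 15836 genes (0% called). DESeq2 called 18 genes and limma voom 0, and neither called a member. An unadjusted p under 0.05 was found for 3 of the 10 members and for 5.39% of all genes. The median over the 10 was 0.36, against −0.02 over all genes.

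By mean CPM, the order was H3B-6527, combination, lenvatinib, vehicle for CYR61, CTGF and TEAD4, and combination, H3B-6527, lenvatinib, vehicle for ANKRD1, AMOTL2, YAP1 and TEAD1. Combination and H3B-6527, and lenvatinib and vehicle, were neighbours that did not differ past the test in any of the 7, and the combination and lenvatinib did. H3B-6527 was not tested against lenvatinib. For AJUBA, LATS2 and WWTR1 no pair of groups compared passed.

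Other commonly used YAP and TEAD signature genes formed a list of 17 apart from the members. With H3B-6527, 9 of the 17 fell and 1 rose (median log2 fold change −0.69), and with the combination 9 fell and 2 rose (median −0.57), against a median of 0.01 over all genes in each comparison. Of all genes, 24.3% were lower and 25.2% higher with H3B-6527, and 25.3% lower and 24.8% higher with the combination. Over the alternatives the number lower ran from 8 to 11 with H3B-6527 and from 9 to 10 with the combination. FJX1, a secreted protein related to a Drosophila growth regulator, averaged 0.537 ± 0.208 CPM with the combination and 0.328 ± 0.188 CPM with H3B-6527, against 12.2 ± 1.20 CPM with vehicle. Its log2 fold changes were −4.49 ± 0.39 and −5.30 ± 0.42 (SE, edgeR adjusted p = 4.34e-06 and 2.50e-06). The growth factor TGFB2 averaged 0.656 ± 0.061 CPM with the combination and 0.478 ± 0.088 CPM with H3B-6527, against 4.19 ± 0.27 CPM with vehicle (SD, n = 3 each), and fell (edgeR adjusted p = 7.02e-06 and 3.16e-06).

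The adenosine-producing enzyme NT5E, the BMP-binding membrane protein CRIM1 and the kinase NUAK2 fell in both comparisons. With the combination and with H3B-6527, in that order, the log2 fold change was −2.0005 ± 0.24 and −2.28 ± 0.24 for NT5E, −1.38 ± 0.18 and −1.45 ± 0.18 for CRIM1, and −2.55 ± 0.31 and −2.10 ± 0.30 for NUAK2. NT5E averaged 253 ± 28.2 CPM with lenvatinib and 245 ± 6.68 CPM with vehicle. TGFB2 had 1.29, 1.99 and 2.72 CPM with lenvatinib, against 4.19, 3.92 and 4.47 CPM with vehicle (log2 fold change −1.07 ± 0.23, unadjusted p = 5.21e-04, edgeR adjusted p = 0.139). The gene that rose with H3B-6527 was ARHGEF17, named after its values were seen, by 0.70 ± 0.20 (edgeR adjusted p = 0.0104).

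**Figure D4:**
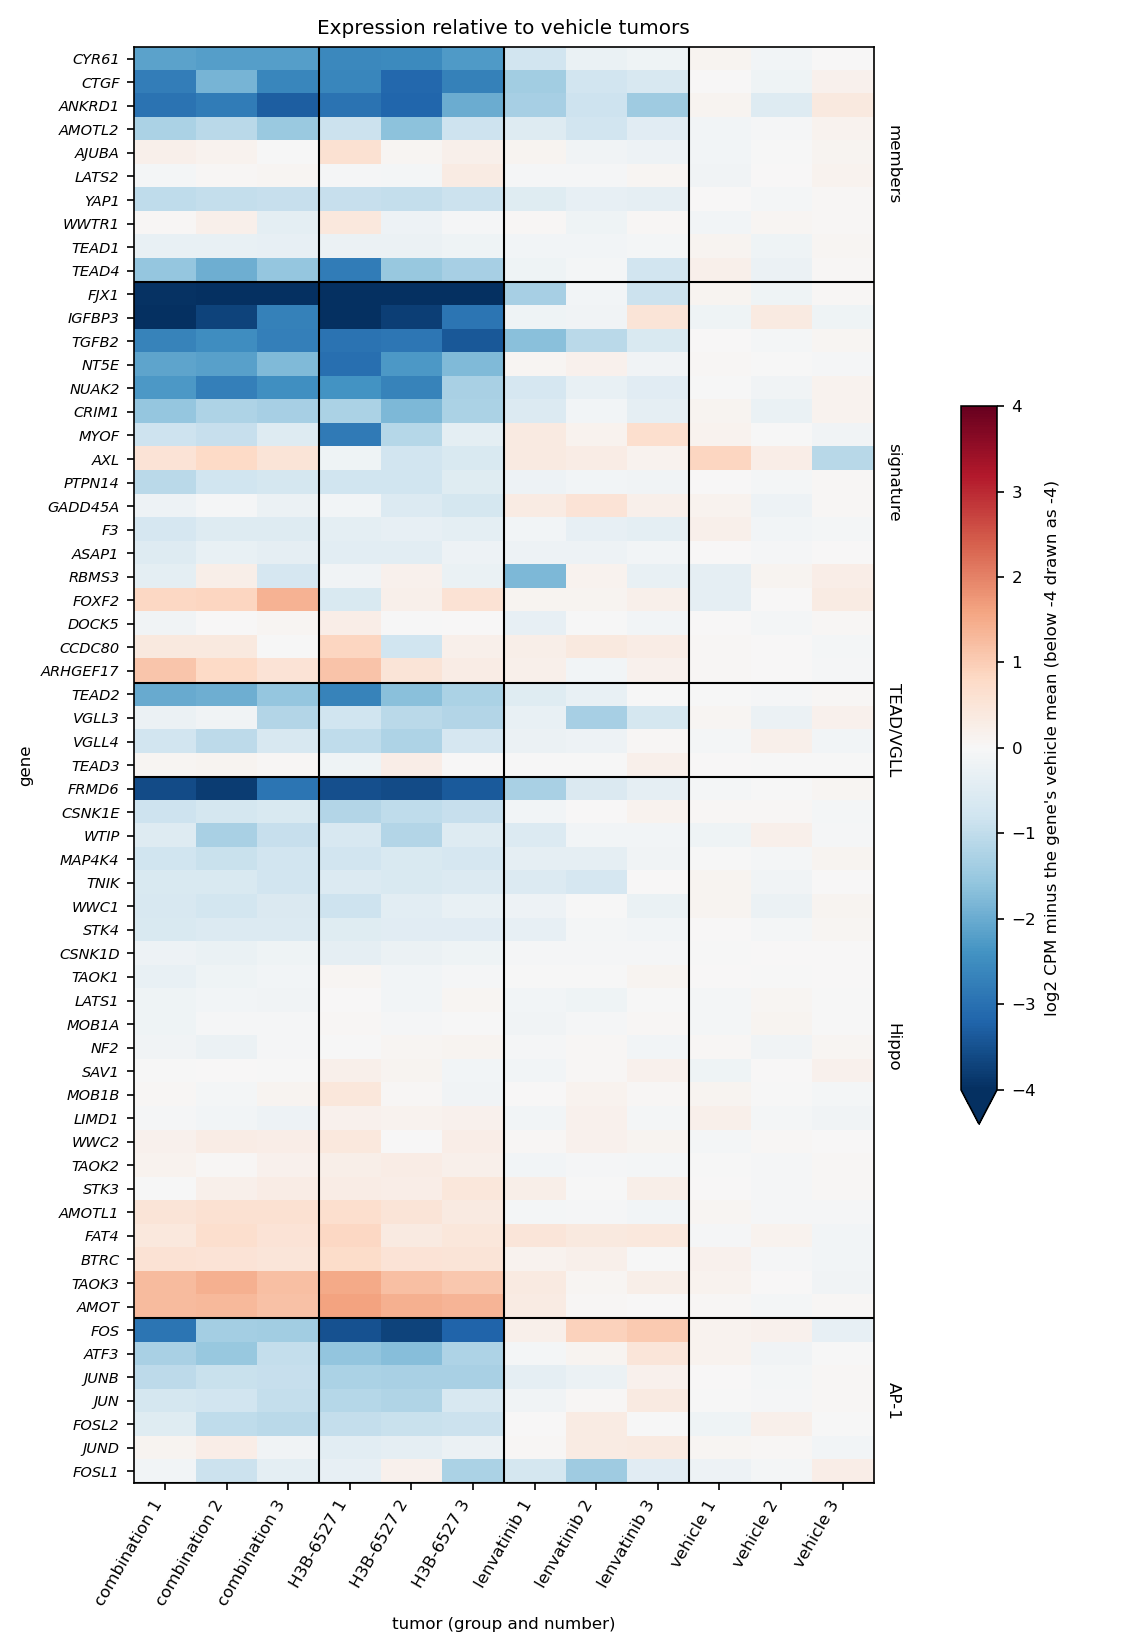
Log2 CPM minus the gene's own vehicle mean (color, with values below −4 drawn as −4) for the 10 genes and 4 lists (rows) in the 12 tumors (columns). Blue is lower and red higher than vehicle. FRMD6, FJX1 and FOS are dark blue in H3B-6527 tumors, AMOT and TAOK3 are red in all 6 tumors that received H3B-6527, and FOS lies above its vehicle mean in the 3 lenvatinib tumors.

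Of 23 Hippo kinases and upstream regulators tested, 8 fell and 7 rose with H3B-6527 (median 0.06), where 24.3% of all genes were lower and 25.2% higher. With the combination 9 fell and 6 rose (median −0.13), where 25.3% of all genes were lower and 24.8% higher, so nothing particular to the list is read from these counts. Over the alternatives, 7 to 8 were lower and 5 to 8 higher with H3B-6527, and 7 to 12 lower and 5 to 6 higher with the combination. FRMD6, a FERM-domain protein related to Drosophila Expanded, had 1.74, 1.49 and 2.72 CPM with the combination and 1.80, 1.73 and 2.01 CPM with H3B-6527, against 19.8, 21.0 and 22.2 CPM with vehicle. It fell, with log2 fold changes of −3.38 ± 0.25 and −3.51 ± 0.25 (SE, edgeR adjusted p = 1.65e-06 and 1.15e-06), and lenvatinib tumors, at 8.49, 13.9 and 16.2 CPM, lay between (−0.71 ± 0.21 against vehicle, edgeR adjusted p = 0.246).

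AMOT, another angiomotin, rose where its relative AMOTL2 fell, by 1.24 ± 0.12 with the combination and 1.46 ± 0.12 with H3B-6527. It averaged 11.8 ± 0.51 and 13.7 ± 1.24 CPM in these groups, against 4.98 ± 0.23 CPM with vehicle (SD, n = 3 each). AMOTL1, also an angiomotin and named after its values were seen, rose by 0.59 ± 0.09 and 0.53 ± 0.09 (edgeR adjusted p = 2.55e-04 with H3B-6527). The kinase TAOK3 rose by 1.29 ± 0.12 and 1.28 ± 0.12. The casein kinase CSNK1E, which takes part in YAP degradation, and the kinase MAP4K4, which can activate LATS kinases, both fell. Their log2 fold changes were −0.71 ± 0.09 and −1.03 ± 0.09 for CSNK1E, and −0.82 ± 0.10 and −0.68 ± 0.10 for MAP4K4. Among core kinases, named after their values were seen, LATS1 had log2 fold changes of −0.15 ± 0.08 and −0.01 ± 0.08 that did not pass the test, and STK4 fell (−0.56 ± 0.08 and −0.46 ± 0.08). Of the same kinases, STK3 did not pass the test with the combination (0.17 ± 0.10) and rose with H3B-6527 (0.345 ± 0.10, edgeR adjusted p = 0.0154).

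AP-1 factors often bind beside TEAD at YAP-responsive enhancers. Of 7 AP-1 genes tested, 6 fell with H3B-6527 (median −0.99) and 5 with the combination (median −0.85), and none rose, against 24.3% and 25.3% of all genes lower and a median of 0.01 over all genes in each comparison. Over the alternatives, 5 to 6 were lower with H3B-6527 and 5 with the combination. FOS had 0.822, 2.45 and 2.41 CPM with the combination and 0.540, 0.461 and 0.670 CPM with H3B-6527, against 7.06, 7.16 and 5.12 CPM with vehicle. It fell, with log2 fold changes of −1.76 ± 0.33 and −3.55 ± 0.39 (SE, edgeR adjusted p = 9.75e-04 and 2.03e-05). JUNB, ATF3, JUN and FOSL2 fell in both comparisons too. In the same order their log2 fold changes were −0.96 ± 0.15 and −1.29 ± 0.15 for JUNB, −1.24 ± 0.19 and −1.52 ± 0.20 for ATF3, −0.82 ± 0.15 and −0.99 ± 0.16 for JUN, and −0.85 ± 0.19 and −0.93 ± 0.19 for FOSL2. With lenvatinib alone FOS had 7.31, 12.1 and 13.3 CPM, all above the vehicle tumors, as held for 11.8% of all genes (log2 fold change 0.76 ± 0.30, unadjusted p = 0.0280, edgeR adjusted p = 0.380).

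CYR61, CTGF and ANKRD1 can also respond to serum response factor and actin. Of 14 tested genes on a list for SRF and actin, 6 fell and 2 rose with H3B-6527 (median −0.14), and 7 fell and 3 rose with the combination (median −0.21). Of all genes, 24.3% were lower and 25.2% higher with H3B-6527, and 25.3% lower and 24.8% higher with the combination. Over the alternatives, 6 to 7 were lower and 2 to 4 higher with H3B-6527, and 7 lower and 2 to 5 higher with the combination. The actin crosslinkers FLNA and ACTN1, the calponin CNN2 and FILIP1L fell in both comparisons. Their log2 fold changes with the combination and with H3B-6527 were −1.60 ± 0.20 and −1.69 ± 0.20 for FLNA, −1.09 ± 0.16 and −1.03 ± 0.16 for ACTN1, −0.83 ± 0.10 and −0.85 ± 0.10 for CNN2, and −1.13 ± 0.13 and −1.19 ± 0.13 for FILIP1L. The SRF coactivator MKL2 rose by 0.50 ± 0.10 and 0.62 ± 0.10. ACTA2 and CNN1, with 31 and 14 counts over all 12 tumors, were too low to test.

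Over the 12 tumors, the genes nearest to CYR61 in log2 CPM relative to vehicle were the collagen gene COL9A3, the sulfatase ARSG and the Notch ligand JAG1, with root mean square differences of 0.14, 0.17 and 0.17 among 12022 genes searched. Nearest to CTGF were the matricellular gene THBS1, the receptor GPR161 and ARHGAP40, at 0.30, 0.33 and 0.36. Between members, the distance of CYR61 to CTGF was 0.42, and that of AMOTL2 to YAP1 was 0.30. These distances describe likeness over tumors that share groups and carry no test.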

How the data were processed

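RNA sequencing of 12 Hep3B xenograft tumors was deposited as 1 table of expected counts (estimated reads per human gene symbol, unscaled and unrounded) by the authors. The labels record the host species, while the symbols are human. Kallisto, STAR and the builds GRCh37 and GRCm38 are named in the submitters' processing notes. Versions, roles, annotation and the handling of mouse reads are not given in the sources used here. Each column was matched to its tumor by the code in its title.

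Counts were rounded, filtered with filterByExpr (15836 of 36292 genes kept) and tested with edgeR 4.0.16 in R 4.3.3 (TMM, robust quasi-likelihood F-test, 2-sided, 4 groups in 1 fit). Benjamini-Hochberg adjustment ran over all genes tested, with a threshold of 0.05. The SE is the log2 fold change divided by the square root of F, and intervals use the test's degrees of freedom. Libraries had 23.8 to 40.9 M counts, and 3 counts in the smallest equal 0.126 CPM, which covers counting error only. The edgeR p-values weigh each difference against the spread among replicate mice, 3 per group. That spread was estimated over the 4 groups together and partly across genes. H3B-6527 tumors therefore also enter the spread used for lenvatinib against vehicle.

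Members and lists were chosen with earlier results of these data known. Named genes are the 10 members, the 5 genes of each list with the smallest p with H3B-6527, the treatment checks, of which DUSP6, SPRY4 and ETV5 are given, and the 3 genes nearest to CYR61 and to CTGF, where nearest was computed on log2 CPM with a prior count of 1 for genes with a mean of 1 or more. Other genes are marked as named after their values were seen, except list genes too low to test (such as DCN, LUM, ACTA2 and CNN1), which are given by their counts. Lists are described by counts and medians only. Fits were repeated with RLE size factors, library totals, DESeq2 1.42.0, limma 3.58.1 voom, other filters, 2 groups alone and each tumor left out. The pipeline was tested on simulated data. Human sequences, lengths and coordinates were not analysed here.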

Additional observations from a re-analysis of the deposited data

Results flagged for a closer look

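Every combination tumor had more CYR61 than every H3B-6527 tumor, which held for 5.95% of all genes, and every lenvatinib tumor had less than every vehicle tumor, which held for 10.9%. Neither comparison passed the test, with log2 fold changes of 0.29 (95% interval −0.05 to 0.63, edgeR adjusted p = 0.596) and −0.38 (−0.67 to −0.08, edgeR adjusted p = 0.324). The difference between these effects was 0.66 ± 0.21 on the log2 scale (SE, n = 3 per group), with an unadjusted p of 0.00707 and an edgeR adjusted p of 0.768, and did not pass the test. CPM values were 5.00, 4.80 and 4.72 with the combination against 3.68, 3.77 and 4.52 with H3B-6527, and 13.1, 18.3 and 19.7 with lenvatinib against 23.7, 20.5 and 22.1 with vehicle. Over 18 alternatives, each tumor left out in turn among them, the difference ran from 0.51 to 0.79 and passed in 0.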

How the results depend on the processing

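No paired analysis was possible because the labels number no animals across groups. The 6 members other than TEAD1 that fell with H3B-6527, and the 7 that fell with the combination against vehicle, were called in 13 of 13 alternatives. Of all values of single members under alternatives, 764 kept their direction and side of the threshold, 42 turned, 17 lost and 7 gained a call. With any 1 tumor left out, members called numbered 6 to 7 (H3B-6527), 7 (combination against vehicle), 5 to 6 (combination against lenvatinib) and 0 otherwise.

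Lenvatinib against vehicle called 0 genes, against 245 with DESeq2, 6 with limma voom, 41 without a low-count filter, 189 in a fit of the 2 groups alone and 0 to 13 with 1 tumor left out, and it called 0 members, against 3 with DESeq2 and 3 in the fit of the 2 groups. The combination against H3B-6527 called 2 genes, against 98 with DESeq2 and 13 without a filter. This comparison called 1 gene in the fit of the 2 groups and 0 to 16 with 1 tumor left out. Non-additivity called 0 genes, and 18 with DESeq2. Scaling by library totals moved the median of all genes to −0.11 with H3B-6527 (3022 higher and 4960 lower, against 3987 and 3842), to −0.14 for the combination against vehicle (2923 and 5339, against 3924 and 4006) and to −0.11 for the combination against lenvatinib (2293 and 4348, against 3020 and 3309). The causes were not tested.

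Directions turned for members that were not called. With library totals, log2 values became −0.0427 for LATS2 and −0.0428 for WWTR1 with H3B-6527, −0.032 for AJUBA and −0.13 for LATS2 in the combination against vehicle, and −0.0799 for LATS2 against lenvatinib. WWTR1 against lenvatinib became 0.0031 with RLE, 0.0039 with DESeq2, 0.0048 with the stricter filter and 0.0094 with 2 groups. With 1 tumor left out, ranges crossing 0 were as follows. With H3B-6527, LATS2 ran from −0.0617 to 0.15 and WWTR1 from −0.14 to 0.21. With lenvatinib, LATS2 ran from −0.0767 to 0.0602 and WWTR1 from −0.0778 to 0.0442. For the combination against vehicle, LATS2 ran from −0.0536 to 0.0833 and WWTR1 from −0.16 to 0.13. Against H3B-6527, ANKRD1 ran from −0.60 to 0.0511, LATS2 from −0.13 to 0.083, WWTR1 from −0.24 to 0.11 and TEAD4 from −0.24 to 0.37. Against lenvatinib, LATS2 ran from −0.0143 to 0.0756 and WWTR1 from −0.14 to 0.16. In the non-additivity contrast, AJUBA ran from −0.24 to 0.0461, LATS2 from −0.12 to 0.0926, WWTR1 from −0.2179 to 0.13 and TEAD1 from −0.0429 to 0.0822.

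The 3 tumors per group limit the smallest exact p to 0.1, and low genes such as VGLL3 rest on few counts.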
